A study of Homo sapiens with 12 samples.

Results

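The late wave described here is the difference between 22Rv1 cells held for 16 h and 22Rv1 cells held for 6 h with a small molecule that the series title presents as an inhibitor of ONECUT2. It was read from 6 of the 12 arrays of the series, 3 per time, over all 41091 probe sets that carry a single gene name, a probe set being a group of short oligonucleotides against 1 transcript. 22Rv1 is an established human prostate carcinoma line, kept here in RPMI-1640 medium with serum. The other 6 arrays, 3 of vehicle-treated cells and 3 of cells after 4 h with the inhibitor, entered no test of the late wave and served to place the early course of each gene. Titles of the 4 h, 6 h and vehicle arrays carry a code element that the 16 h titles lack, its meaning is not stated, and no time is given for vehicle. The 10 h between the times and anything that element stands for therefore cannot be told apart. The labels do not say if the 3 arrays of a group were separate cultures, so the p-values cover the spread between arrays alone, possibly a technical one.

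ONECUT2 is a homeodomain transcription factor that has been linked to neuroendocrine features in prostate cancer. Cells under chemical stress commonly engage a few transcription programmes. NRF2 switches on antioxidant and detoxifying enzymes, ATF4 answers amino acid shortage and misfolded protein with genes for amino acid transport and metabolism, and p53 induces cell cycle inhibitors and death receptors. Retinoblastoma family proteins and E2F factors control the genes of DNA replication, while androgens maintain the secretory genes of luminal prostate cells.

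Values are log2 signals, and a gene was read from its brightest probe set where that lay at or above 2.11, the median over all probe sets. This gave 12626 genes of 19775 named. A gene is said to have risen or fallen where limma's test of 16 h against 6 h gave a Benjamini-Hochberg adjusted p below 0.05 over all 41091 probe sets. Errors are standard errors (SE) of the log2 change, with n = 3 arrays per time. By this rule 5398 probe sets rose (13.1%) and 3846 fell (9.36%). At gene level 2878 genes rose, which is 22.8% of genes read, and 1861 fell, 14.7%. The rises reached 2-fold in 325 genes (2.57%) and the falls in 107 (0.847%). The median change over all genes was 0.04. The split between rises and falls depended on how the arrays were scaled: rises were 60.7% of called genes as deposited, 49.2% after quantile normalisation and 41.1% after centring each array on its median, which moved the median change to -0.08. List counts below are therefore also given under centring where it turned their direction.

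RNA controls on the arrays differed between the times and so moved with each result given here. For ACTB, the 3' control probe set exceeded the 5' one on the log2 scale by 3.02 ± 0.34 (SD, n = 3) at 6 h and 4.09 ± 0.09 at 16 h, with no overlap (exact two-sided permutation p = 0.1, the smallest that 3 against 3 arrays can give). That of GAPDH was -0.51 ± 0.04 and -0.43 ± 0.04 (exact p = 0.2). The 18S ribosomal RNA control read 8.64 ± 0.19 and 11.06 ± 0.10. The mean of the spiked bacterial controls, which report the hybridisation and not the cells, differed by 0.0025. The part of these differences in the results was not tested. Arrays of 1 time correlated at r of 0.9964 to 0.998 across genes and arrays of different times at 0.9823 to 0.9879.

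The cell type was checked against marker genes. All 10 luminal prostate markers that are named on the array and not set aside lay above the level read, with KRT18, chosen after its values were seen like the next genes, at 11.25 to 11.56 and EPCAM at 10.01 to 10.26 over the 6 arrays. Of 12 fibroblast markers 5 were at background on all 6 arrays, and of 10 leukocyte and 10 endothelial markers 3 and 4 were. At background means at or below the highest unspiked bacterial control on the same array. FOLH1, the gene of prostate-specific membrane antigen, lay just above the level read, at 2.28 to 2.51.

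The largest late rise was in HMOX1, the gene of heme oxygenase 1, which breaks down heme. Its signal was 4.88, 5.22 and 4.96 on the 6 h arrays and 10.68, 10.82 and 10.86 on the 16 h arrays, a 54.4-fold rise (log2 change 5.76 ± 0.10, limma adjusted p = 1.63e-14). All 16 h arrays lay far above all 6 h arrays. HMOX1 had already moved early, from 4.09 ± 0.02 (SD, n = 3) with vehicle to 5.25 ± 0.33 at 4 h, so the late step was the larger one. LAMP3, a lysosomal membrane protein gene, was at background on every 6 h array, with 1.72, 1.51 and 1.33, and read 5.69, 5.74 and 6.08 at 16 h. Its rise was at least 13.5-fold, measured against the highest unspiked control. FOS, a subunit of the AP-1 transcription factor, went from 3.06, 2.97 and 3.08 to 6.40, 6.97 and 7.20, a 14.1-fold rise (log2 change 3.82 ± 0.17). The arrays of the times did not overlap for any of these genes, a property shared by 30.6% of all genes in the upward direction.

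Next in size came GPAT3, an acyltransferase of glycerolipid synthesis, with 12.7-fold, and GEM, a small GTPase, with 10.8-fold. CYP1B1, a cytochrome P450 induced through the aryl hydrocarbon receptor, rose 10.5-fold and so did EID3. All 3 CYP1B1 probe sets rose, by 2.43 to 3.40. The cytokine gene TSLP rose 9.58-fold, SESN2, a stress-induced sestrin that restrains mTORC1, 9.11-fold, and FIBIN 8.31-fold from a signal at background on 1 of 3 6 h arrays. Their SEs were 0.12 to 0.18 on the log2 scale.

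The largest fall was in SLC45A3, which encodes the prostate marker protein prostein. It read 8.01, 7.96 and 7.97 at 6 h and 5.03, 5.03 and 5.27 at 16 h, a 7.31-fold fall (log2 change -2.87 ± 0.10, limma adjusted p = 5.87e-11). A second SLC45A3 probe set fell by 1.01. KLK4, a prostate kallikrein protease gene, went from 7.11, 6.89 and 7.16 to 4.26, 4.53 and 4.32, a 6.43-fold fall, and its other 3 probe sets fell by 0.47 to 2.95. Neither gene's 16 h arrays came near its 6 h arrays, and for KLK4 the vehicle and 4 h arrays sat with the 6 h arrays. For SLC45A3 the vehicle arrays did so, while the 4 h arrays (7.72, 7.73 and 7.81) lay slightly below both.

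SAMD1, a chromatin reader of CpG islands, fell 5.73-fold on its brightest probe set, but its second probe set, near background, gave -0.06 (adjusted p = 0.79). CTXN1 fell 5.07-fold, ATN1 3.72-fold, TRAPPC1, a subunit of a vesicle tethering complex, 3.57-fold, and NUCB1 3.40-fold. PKM, the pyruvate kinase gene, fell 3.42-fold, from 10.10, 10.07 and 10.04 to 8.13, 8.37 and 8.38. A second PKM probe set with a low signal read 0.29 higher and did not pass (adjusted p = 0.106). The metallothionein genes MT1G and MT1F complete the 10 largest falls.

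**Figure D1:**
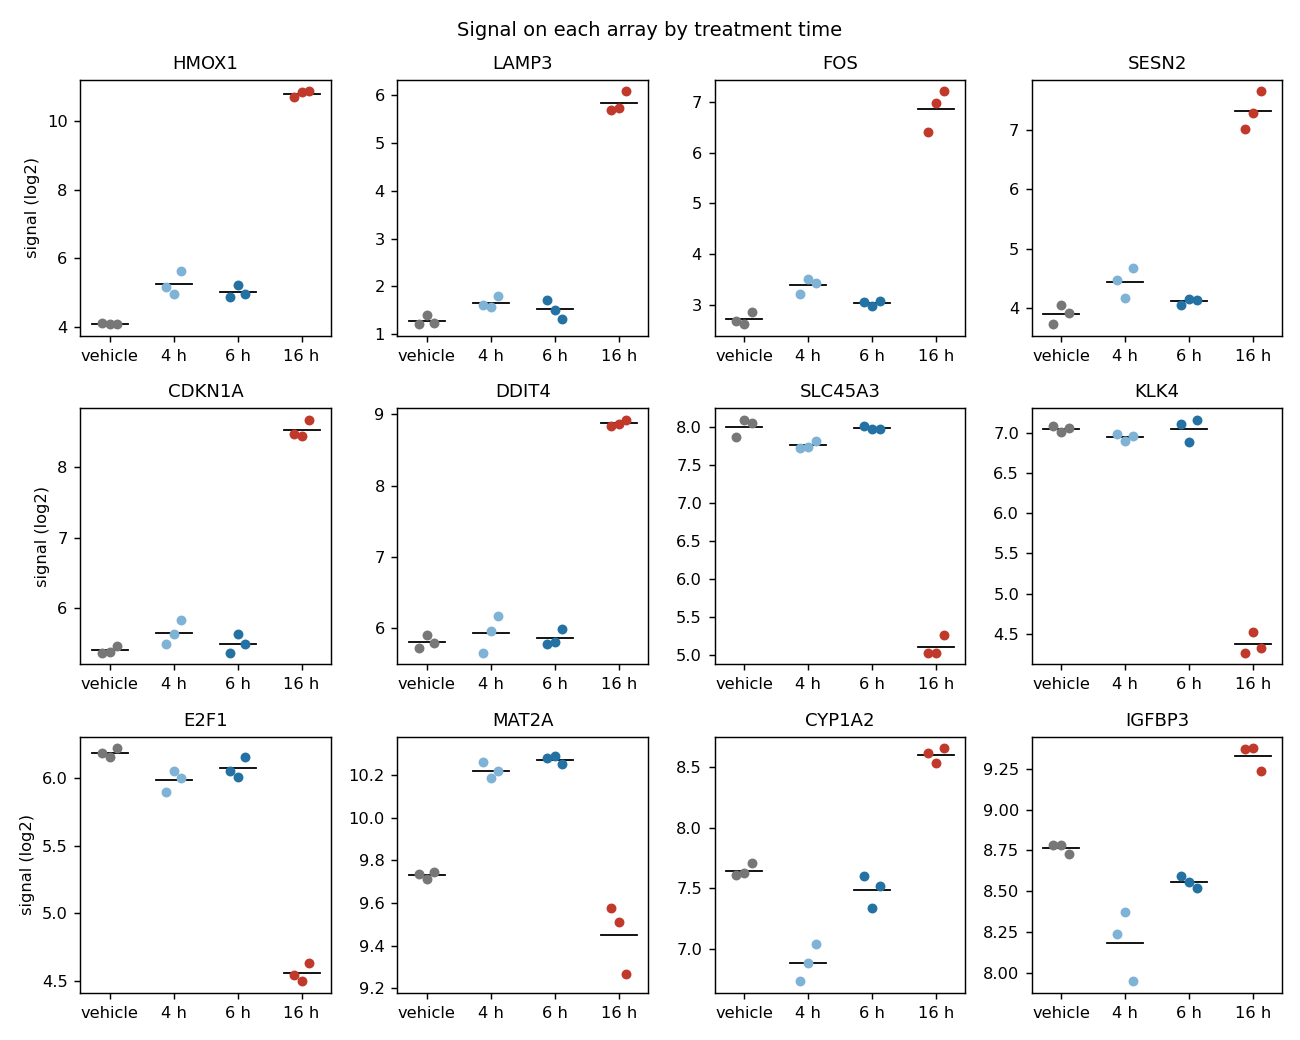
Log2 signal (y axis, a separate range in each panel) of 12 genes on each array (points, 3 per group) with the group mean (line), for vehicle and for 4 h, 6 h and 16 h with the inhibitor. HMOX1, LAMP3, FOS, SESN2, CDKN1A and DDIT4 are highest at 16 h, SLC45A3, KLK4 and E2F1 are lowest there, MAT2A is raised at 4 h and 6 h only, and CYP1A2 and IGFBP3 are low at 4 h and highest at 16 h.

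To find transcripts that changed mainly after 6 h, a gene was called late-only where it rose or fell 2-fold or more between 6 h and 16 h after little early change. For this, the 95% intervals of its 4 h and 6 h differences from vehicle both had to lie within 0.5 log2 units of 0. Small early shifts can pass this margin. At 6 h NQO1 was called higher than vehicle by 0.345 (limma adjusted p = 0.00121) and HERPUD1 lower by 0.27 (limma adjusted p = 0.0115), and both are late-only. The 6 h arrays enter both sides of this definition, so the class is a description. It held 176 risers (1.39% of genes) and 87 fallers (0.689%). The risers had a median late change of 1.24 after median differences from vehicle of 0.04 at 4 h and 0.02 at 6 h. The fallers had a median late change of -1.17. With a tighter margin of 0.3 only 25 and 37 genes stayed in the class.

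Of all 325 genes that rose 2-fold or more, 54.2% had such a flat early course, against 83.7% of all genes read and 81.3% of the 107 genes that fell 2-fold or more. The 4 h interval lay wholly above 0 in 76 of the risers and below 0 in 5. Of the fallers 13 had it below 0 and 1 above. Another 77 risers were not flat by the margin although both early intervals held 0, so their early course is undetermined at this precision. The median 6 h signal was 4.71 in the risers and 7.01 in the fallers.

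**Figure D2:**
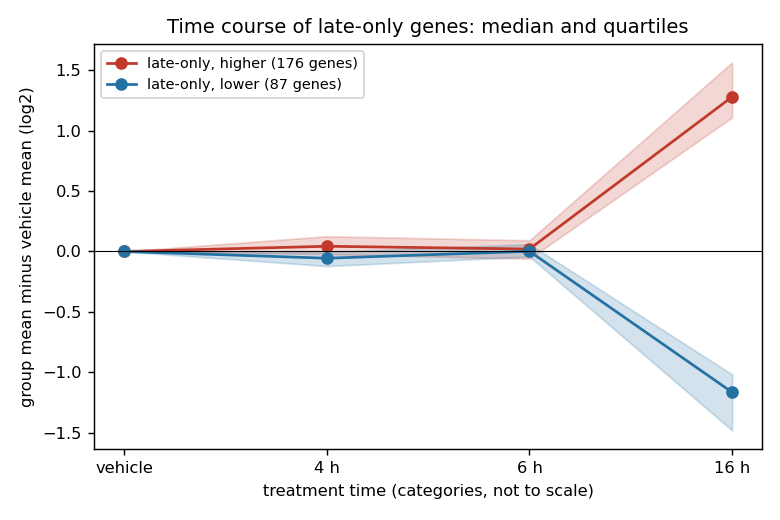
Group mean minus vehicle mean in log2 units (y axis) at vehicle, 4 h, 6 h and 16 h (x axis, categories not to scale) for the 176 late-only risers and 87 late-only fallers; lines are medians over genes and bands run from the lower to the upper quartile. Both classes stay near 0 to 6 h, which their definition requires, and part only at 16 h.

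Among the late-only risers, the largest after FIBIN was CDKN1A, the cyclin-dependent kinase inhibitor p21. It read 5.37, 5.64 and 5.49 at 6 h and 8.48, 8.45 and 8.67 at 16 h, an 8.18-fold rise (log2 change 3.03 ± 0.10, limma adjusted p = 3.5e-11). DDIT4, which encodes the mTORC1 inhibitor REDD1, went from 5.78, 5.81 and 5.99 to 8.83, 8.87 and 8.92, an 8.08-fold rise. For both genes the 9 arrays of vehicle, 4 h and 6 h formed a single band well below the 16 h arrays. CALCA, the calcitonin gene, rose 7.07-fold, and the growth arrest genes GADD45B and GADD45A rose 5.47-fold and 5.45-fold. The 6 largest late-only falls were in SLC45A3, KLK4, MT1G, ATN1, TRAPPC1 and MT1F.

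Gene lists were described by how many of the members read rose and fell and by their median change, to be read against 22.8% of all genes rising, 14.7% falling and a median of 0.04. No list was tested as a set. The lists were drawn up with earlier results of these data known. The plot of list shares shows stress lists at the upper end and cell cycle, androgen and metallothionein lists at the lower end.

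**Figure D3:**
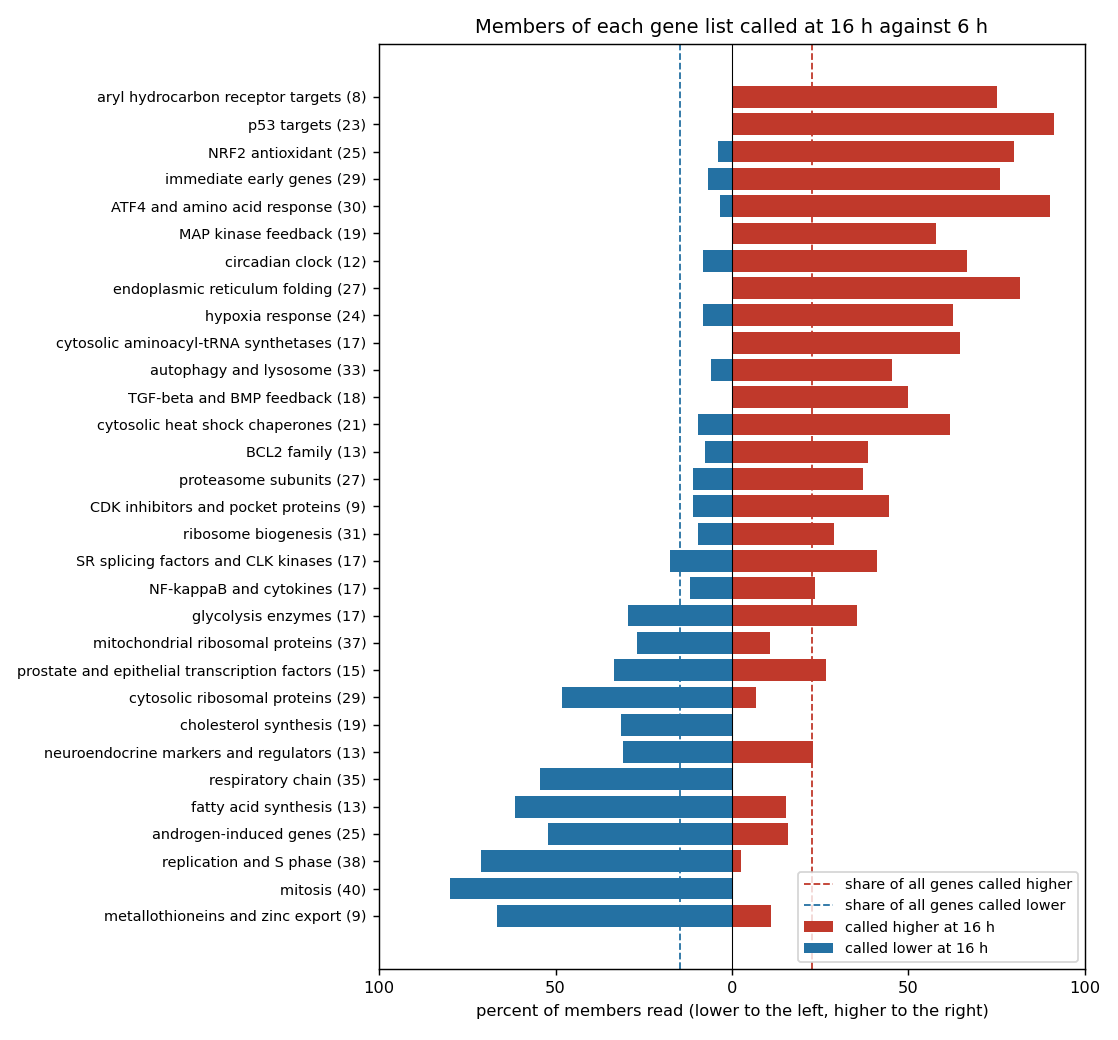
Percent of the members read in each gene list (number of members in brackets) that rose (bars to the right) or fell (bars to the left) at 16 h against 6 h, ordered by the median change of the list. Dashed lines mark the same shares over all genes, 22.8% and 14.7%.

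NRF2 target genes rose broadly. Of 25 members read, 20 rose and 1 fell, with a median change of 1.03, and 10 were late-only. OSGIN1, an oxidative stress growth inhibitor, rose 7.49-fold, from 3.07, 3.39 and 3.60 to 6.12, 6.02 and 6.64. The aldo-keto reductase genes AKR1C2 and AKR1C1 rose 5.09-fold and 4.29-fold, but their probe sets can bind transcripts of both. NQO1, a quinone reductase gene, read 9.50, 9.56 and 9.61 at 6 h and 11.56, 11.57 and 11.58 at 16 h, a 4.03-fold rise with the arrays of each time close together. NQO1 had already been above vehicle by 0.22 at 4 h and 0.345 at 6 h, within the late-only margin. Named after the values were seen, the member that fell was PGD, a pentose phosphate enzyme gene, by 0.47. TXN, the thioredoxin gene, also named so, read 0.10 lower without passing.

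The list of aryl hydrocarbon receptor targets shares NQO1 with it. Of 8 read, 6 rose and none fell (median 1.51). Besides CYP1B1, TIPARP, a mono-ADP-ribosyltransferase that dampens the receptor, rose 5.16-fold. CYP1A1, the classical induced cytochrome, read 7.93, 8.14 and 8.22 at 6 h and 9.95, 9.89 and 10.15 at 16 h, a 3.73-fold rise. With vehicle CYP1A1 read 8.37, 8.51 and 8.32, above every 4 h and 6 h array, and the early differences of -0.30 at both times stayed within the late-only margin. Against vehicle the 16 h level was 3.03-fold higher. AHRR, the receptor's repressor, named after its values were seen, read 0.09 higher without passing.

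ATF4 and amino acid response genes rose in nearly every case. Of 30 read, 27 rose and 1 fell (median 0.94), 15 of the rises reached 2-fold and 9 genes were late-only. After SESN2 and DDIT4 came DDIT3, the transcription factor CHOP, which went from 7.20, 7.23 and 7.43 to 9.38, 9.49 and 9.54, a 4.55-fold rise. ATF3, a stress-induced transcription factor, had 2 phases: it read 8.30 ± 0.02 (SD, n = 3) with vehicle, 9.34 ± 0.05 at 4 h, 8.52 ± 0.14 at 6 h and 10.53 ± 0.15 at 16 h. Its late rise was 4.04-fold. Named after the values were seen, the member that fell was SLC1A5, a glutamine transporter gene, by 0.47. Of 17 cytosolic aminoacyl-tRNA synthetase genes, which charge tRNAs and are in part ATF4 targets, 11 rose and none fell (median 0.39). WARS1, SARS1, YARS1 and CARS1 led with 1.59-fold to 1.77-fold.

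Genes of protein folding in the endoplasmic reticulum moved less per gene but widely. Of 27 read, 22 rose and none fell (median 0.44), and 15 rose after median centring. ERN1, the stress sensor IRE1, rose 4.70-fold, although 1 of its other probe sets, with a low signal, read 0.26 lower without passing. DNAJB9 rose 2.97-fold and HERPUD1, which serves the degradation of misfolded proteins, 2.07-fold. HSPA5, the chaperone BiP, was singled out after its values were seen: it read 11.57, 11.56 and 11.66 with vehicle, 11.22, 11.10 and 11.17 at 6 h and 12.09, 11.98 and 12.27 at 16 h. The 6 h arrays thus lay below the vehicle arrays and the 16 h arrays above them. The median of this list at 6 h was -0.08 against vehicle.

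Of 21 heat shock chaperone genes outside the ER list 13 rose and 2 fell (median 0.22), with HSPA13 and DNAJB4 at 2.25-fold and 2.19-fold. After centring the counts were 9 and 3. The fallers, named after their values were seen, were HSPB1 and HSPE1. Of 27 proteasome subunit genes 10 rose and 3 fell (median 0.12), led by PSMD12 at 1.45-fold, but after centring 5 rose and 6 fell, so no direction can be given. Among 33 genes of autophagy and the lysosome, 15 rose and 2 fell (median 0.29). LAMP3 stood first, followed by GABARAPL1 at 3.49-fold, the transcription factor TFE3 at 2.79-fold and MAP1LC3B, which encodes the autophagosome protein LC3B, at 2.31-fold. The GABARAPL2 and GABARAP genes, named after their values were seen, fell by 0.18 and 0.33.

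Of 24 hypoxia response genes 15 rose and 2 fell (median 0.44). ANKRD37, ADM and KDM3A rose 5.12-fold, 4.99-fold and 2.86-fold, and VEGFA, the angiogenic factor that is also on the ATF4 list, 2.61-fold. HILPDA and AK4, named after their values were seen, fell by 0.35 and 0.36. Among 17 glycolytic enzyme genes, many of them also hypoxia targets, 6 rose and 5 fell (median -0.01). PKM and PFKL, the liver-type phosphofructokinase, fell 2-fold or more, while ALDOC and HK2 rose 1.36-fold and 1.34-fold. After centring 3 rose and 7 fell. PFKL has a second, dimmer probe set, at 5.08 to 5.13 on the 6 h arrays, that changed by -0.04 only (limma adjusted p = 0.86). The ALDOC call was lost without 6 h replicate 1, 6 h replicate 2, 16 h replicate 2 or 16 h replicate 3 (adjusted p of 0.102, 0.0735, 0.0817 and 0.111) and after quantile normalisation (0.0703).

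Promoter sequence was read for the 10298 genes with an entry in the RefSeq promoter table (assembly GRCh38.p14), as the 250 bases before the first listed start site. Letters were searched on both strands. TGATGNAA, known from sites of C/EBP and ATF factors, was present in 1.52% of all promoters, in 8 of the 254 promoters of genes that rose 2-fold (3.15%) and in 0 of the 87 of genes that fell 2-fold. TGANTCA, the letters of AP-1 sites, was present in 3.60%, 6.69% and 2.30% respectively. These shares are descriptions with no test, and a match is not a binding site. The 4 stress genes below rose and were picked among genes whose promoters hold a match. Windows of 60 bases on the strand of the gene show where the letters lie, and capitals mark the match:

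ATF3, chr1:212565190-212565249, plus strand: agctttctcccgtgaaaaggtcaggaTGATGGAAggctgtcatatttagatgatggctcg
HERPUD1, chr16:56931940-56931999, plus strand: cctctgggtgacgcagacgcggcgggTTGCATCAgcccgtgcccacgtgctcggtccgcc
OSGIN1, chr16:83953117-83953176, plus strand: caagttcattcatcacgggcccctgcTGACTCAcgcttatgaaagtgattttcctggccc
DDIT3, chr12:57520705-57520764, minus strand: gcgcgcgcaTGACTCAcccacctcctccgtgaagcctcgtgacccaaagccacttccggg

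In HERPUD1 the match is on the opposite strand, so the capitals are its reverse complement. TGANTCA reads the same on both strands. The matches end 183, 168, 90 and 234 bases before the listed start sites. TGANTCA can share bases with TGACNNNGC, the core of antioxidant response elements, which was present in 12.3% of all promoters, 14.6% of those of 2-fold risers and 14.9% of those of 2-fold fallers. TGACGTCA was present in 2.85%, 4.72% and 3.45%, ACGTG in 23.3%, 24.8% and 14.9%, and GCGTG, the core of aryl hydrocarbon receptor elements, in 45.2%, 44.9% and 39.1%. CCAAT was present in 35.4%, 35.4% and 42.5%, and TTTGAA in 8.42%, 9.06% and 8.05%. The NQO1 window holds none of the letters searched, and that of SESN2 only CCAAT. Neither TGATGNAA nor TGANTCA was present in the promoters of CDKN1A, DDIT4, FOS, GDF15 and SERTAD1, while those of CALCA, HSPA6, ME1 and TFE3 hold 1 of them.

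Targets of p53 rose almost as a whole. Of 23 read, 21 rose and none fell (median 1.09), 13 of them 2-fold or more, and 10 were late-only. CDKN1A and GADD45A are described above. GDF15, a secreted stress cytokine, went from 9.18, 9.28 and 9.25 to 11.90, 11.83 and 12.05, a 6.46-fold rise that followed a 1.74-fold rise at 4 h. A second, dimmer GDF15 probe set fell by 0.36 (adjusted p = 0.0421). SERTAD1 rose 5.87-fold. The 2 members that did not pass, named after their values were seen, were BAX (0.21) and EDA2R (-0.21). In the overlapping list of 13 BCL2 family genes 5 rose and 1 fell, with the pro-death member PMAIP1 (NOXA) at 2.67-fold, BID at 1.59-fold, the pro-survival member MCL1 at 1.57-fold and BAK1 at 1.39-fold. BCL2L2, named after its values were seen, rose by 0.33, and BCL2 fell by 0.39. After quantile normalisation the counts of this list were 3 and 2, and the BAK1 call was lost (0.32, adjusted p = 0.0629).

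Immediate early genes, which answer growth factors and stress quickly, rose late as well. Of 29 read, 22 rose and 2 fell (median 1.01), 15 of them 2-fold or more, and 3 were late-only. The list had also moved early, with a median of 0.30 above vehicle at 4 h. Only 8 of the 29 had a flat early course, against 83.7% of all genes. After FOS and GEM, EGR3, a zinc finger factor, rose 6.98-fold, having been 1.74-fold above vehicle at 4 h (limma adjusted p = 0.0359). Its relative EGR4 was at background on every 6 h array (1.12, 1.16 and 1.30) and read 2.67, 4.20 and 5.20 at 16 h, a rise of at least 3.84-fold with widely spread 16 h arrays. A second EGR4 probe set gave -0.12 without passing. EGR1, singled out after its values were seen, repeated the course of ATF3: 7.99 ± 0.05 (SD, n = 3) with vehicle, 8.82 ± 0.07 at 4 h, 8.18 ± 0.03 at 6 h and 10.47 ± 0.08 at 16 h. Its 16 h arrays were the highest of the 12. The fallers were CCN2 and MYC. MYC fell by 0.30 ± 0.06, from 9.94, 9.91 and 9.80 to 9.65, 9.54 and 9.58, and had been lower at 4 h than with vehicle by 0.40.

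Of 19 MAP kinase feedback genes, which are induced by ERK signalling and restrain it, 11 rose and none fell (median 0.75). The phosphatase genes DUSP5, DUSP4 and DUSP6 rose 4.74-fold, 3.71-fold and 3.70-fold, and the transcription factor gene ETV5 3.56-fold. TGF-beta and BMP feedback genes rose in 9 of 18 and fell in none (median 0.25), led by the activin subunit INHBA at 4.02-fold and TGIF1 at 3.82-fold. Of 12 circadian clock genes 8 rose and 1 fell (median 0.61), led by NFIL3 at 5.62-fold and BHLHE41 at 2.39-fold. The faller, DBP, was named after its values were seen. The NF-kappaB and cytokine list was mixed, with 4 of 17 higher and 2 lower. NFKBIZ rose 2.37-fold and REL 1.57-fold. LIF, a cytokine gene, passed the test, but 2 of its 3 6 h arrays (2.04, 2.05 and 2.05) were at background, and it read 3.05, 3.33 and 3.49 at 16 h. NFKBIA, the inhibitor that NF-kappaB itself induces, fell 1.94-fold. IRF1 (0.60) and NFKB2 (-0.44) were named after their values were seen.

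Cell cycle genes fell together. Of 38 replication and S phase genes read, 27 fell and 1 rose (median -0.40), and of 40 mitosis genes 32 fell and none rose (median -0.42). At 6 h both lists lay at vehicle level, with medians of -0.003 and -0.01. E2F1, a factor that drives the replication genes, fell most: it read 6.05, 6.00 and 6.15 at 6 h and 4.54, 4.50 and 4.63 at 16 h, a 2.86-fold fall (log2 change -1.51 ± 0.11, limma adjusted p = 1.83e-07), and its second probe set fell by 1.11. All vehicle, 4 h and 6 h arrays lay above all 16 h arrays. GINS2, a subunit of the replicative helicase, went from 8.77, 8.91 and 8.96 to 7.55, 7.95 and 8.06, a 2.04-fold fall. MCM7, another helicase subunit, fell 1.99-fold and UHRF1, which couples replication to DNA methylation, 1.82-fold. GINS4 was the member that rose, by 0.63, and was named after its values were seen.

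The mitotic genes that fell most were PLK1 and FOXM1, a kinase and a transcription factor of G2 and M phase, with 1.81-fold and 1.80-fold, and TPX2 and BIRC5 with 1.71-fold and 1.66-fold. A second, dimmer BIRC5 probe set rose by 0.71 (adjusted p = 0.00257). None of the mitotic genes reached 2-fold. In bulk RNA, fewer cells in a phase and less of these messages per cell cannot be told apart. Among 9 CDK inhibitor and pocket protein genes 4 rose and 1 fell: CDKN1A, CDKN2B at 1.89-fold, CDKN1C at 1.73-fold and, named after its values were seen, RB1 by 0.21 rose, and CDKN2A fell 1.32-fold on a probe set that can bind several transcripts, while the probe set outside that class read 0.13 higher.

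The letters TTTCCCGC and TTTGGCGC, 2 forms of the E2F site that cannot match at the same position of a strand, were looked for in the same promoter windows. TTTCCCGC was present in 240 of the 10298 promoters (2.33%), in 58 of 1538 of genes that fell (3.77%), in 5 of 87 of those that fell 2-fold (5.75%) and in 1 of 254 of those that rose 2-fold (0.394%). TTTGGCGC was present in 0.855%, 1.76%, 2.30% and 0.787% respectively. In the 4 replication genes with the largest falls the matches, in capitals, lie as follows in windows of 60 bases on the gene's strand:

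GINS2, chr16:85688955-85689014, minus strand: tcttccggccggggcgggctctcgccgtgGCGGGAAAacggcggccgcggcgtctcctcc
MCM7, chr7:100101551-100101610, minus strand: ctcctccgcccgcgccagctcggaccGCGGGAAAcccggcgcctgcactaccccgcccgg
UHRF1, chr19:4909441-4909500, plus strand: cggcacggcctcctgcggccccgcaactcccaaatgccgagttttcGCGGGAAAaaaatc
E2F1, chr20:33686386-33686445, minus strand: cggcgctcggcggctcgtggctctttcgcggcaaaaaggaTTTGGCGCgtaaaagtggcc

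In GINS2, MCM7 and UHRF1 the match to TTTCCCGC is on the opposite strand. The matches end 23, 179, 6 and 12 bases before the listed start sites.

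Androgen-induced genes mostly fell. Of 25 read, 13 fell and 4 rose (median -0.36), and 4 of the 5 falls of 2-fold or more were late-only, the exception being KLK2. After SLC45A3 and KLK4 the largest fall was in ACP3, prostatic acid phosphatase, which went from 4.38, 4.55 and 4.72 to 3.08, 2.93 and 3.43, a 2.65-fold fall. KLK2, a kallikrein, read 6.20, 5.96 and 6.63 at 6 h and 5.19, 5.21 and 4.86 at 16 h, a 2.26-fold fall that its second probe set shared (-1.17). KLK3, which encodes prostate-specific antigen and had a low signal here, read 3.93, 3.94 and 4.08 at 6 h and 3.71, 3.59 and 4.07 at 16 h. The KLK3 arrays overlapped, and its change of -0.20 (95% interval -0.50 to 0.11, limma adjusted p = 0.371) did not pass. PTGER4, a prostaglandin receptor gene, rose 3.24-fold, and NDRG1, ABCC4 and ELL2, named after their values were seen, rose by 1.38, 0.81 and 0.42.

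Of 15 prostate and epithelial transcription factor genes 4 rose and 5 fell. ELF3 rose 2.35-fold, SNAI2 1.68-fold from a signal at background on 2 of 3 6 h arrays, and KLF5 1.59-fold, while HOXB13, a homeobox factor of prostate identity, fell 1.95-fold, from 7.31, 7.46 and 7.32 to 6.47, 6.24 and 6.48. Named after their values were seen, OVOL1 rose by 0.52, and TFAP2A, EHF, GATA3 and SPDEF fell by 0.13, 0.22, 0.39 and 0.48. Among the luminal markers, STEAP1 and TMPRSS2 fell 1.66-fold and 1.58-fold and KRT18 and EPCAM, named after their values were seen, rose by 0.18 each, calls that were lost after median centring. The summed log2 signal of the 10 markers was 74.53 to 75.7 on the 6 h arrays and 71.62 to 72.29 on the 16 h arrays.

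ONECUT2, the stated target, rose 1.44-fold. It read 6.56, 6.78 and 6.80 at 6 h and 7.16, 7.47 and 7.10 at 16 h (log2 change 0.53 ± 0.11, limma adjusted p = 0.003), with no overlap. Its other probe sets above the level read gave 0.45 (adjusted p = 0.0394) and 0.17 (adjusted p = 0.422). The mean over all named ONECUT2 probe sets, which takes in those below the level read, did not pass (0.17, adjusted p = 0.188). Of 13 neuroendocrine markers and regulators 3 rose and 4 fell (median -0.12). SCG2, a secretogranin, rose 1.78-fold, REST, the repressor of neuronal genes, rose by 0.59, and POU3F2 fell 1.36-fold. The POU3F2 call was lost without 6 h replicate 1, 6 h replicate 3 or 16 h replicate 1 (adjusted p of 0.0651, 0.0687 and 0.0797). ENO2, EZH2 and SRRM4, named after their values were seen, fell by 0.27, 0.28 and 0.31.

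Metallothionein genes, which encode zinc- and copper-binding proteins, fell as a group. Of 9 members of the list read, 6 fell and 1 rose (median -1.42), and 7 were late-only. MT1G went from 8.58, 8.68 and 8.55 to 6.69, 6.54 and 6.14, a 4.44-fold fall. MT1F read 8.92, 8.89 and 8.96 at 6 h and 7.13, 7.24 and 7.04 at 16 h, a 3.45-fold fall. MT1H and MT1X fell 2.95-fold and 2.92-fold. The arrays of the times were far apart for each, but these probe sets can bind several metallothionein transcripts, so they are not independent. The riser, named after its values were seen, was the zinc exporter SLC30A1, which like them is a target of the zinc sensor MTF1. SLC30A1 read 6.52, 6.74 and 6.75 at 6 h and 7.77, 7.95 and 8.04 at 16 h (log2 change 1.25 ± 0.10). MTF1, also named so, read 0.27 higher without passing.

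Fatty acid synthesis genes fell in 8 of 13 and rose in 2 (median -0.19). FASN, fatty acid synthase, went from 9.45, 9.37 and 9.40 to 7.79, 7.75 and 7.58, a 3.25-fold fall after a flat early course. SREBF1, the factor that drives these genes, fell 2.92-fold. The risers were ME1, malic enzyme, which is also an NRF2 target, at 3.35-fold, and SCD5 at 1.82-fold. Of 19 cholesterol synthesis genes 6 fell and none rose (median -0.09), with SREBF2, the sterol-regulated factor of that pathway, at 1.83-fold and MVK at 1.43-fold.

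Of 35 respiratory chain genes 19 fell and none rose (median -0.18), all by less than 2-fold, with SDHA, NDUFA2, COX8A and NDUFB10 at 1.45-fold to 1.38-fold. The NDUFA2 call was lost on the probe set outside the class that can bind several transcripts (-0.30, adjusted p = 0.168). Cytosolic ribosomal protein genes fell in 14 of 29 and rose in 2 (median -0.09), with 20 and 0 after centring and 11 and 5 after quantile normalisation. The largest falls were in RPLP2 and RPL22, 1.31-fold and 1.25-fold, and the risers, named after their values were seen, were RPL14 and RPLP1. The RPL22 call was lost on the probe set outside the class that can bind several transcripts (-0.16, adjusted p = 0.0506). The RPLP2 call was lost without 6 h replicate 3 or 16 h replicate 2 (adjusted p of 0.0563 and 0.0725). Mitochondrial ribosomal protein genes fell in 10 of 37 and rose in 4 (median -0.03), with MRPS34 at 1.51-fold. MRPL4 fell 1.81-fold on its brightest probe set but read 0.12 higher on the one outside the class that can bind several transcripts.

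Ribosome biogenesis genes rose in 9 of 31 and fell in 3 (median 0.11), led by UTP15 at 1.77-fold. Of 17 genes for SR splicing factors and the CLK kinases that phosphorylate them 7 rose and 3 fell (median 0.04), but after centring 4 rose and 7 fell. The kinase genes CLK1, CLK3 and CLK4 rose 2.22-fold, 1.61-fold and 1.58-fold, while SRSF3, SRSF4 and SRSF7, named after their values were seen, fell by 0.17, 0.33 and 0.35.

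Transcripts that reversed an early shift were sought with differences that share no array: 4 h against vehicle for the early shift, and 16 h against 6 h for the late one. At 4 h 72 genes were higher than with vehicle (0.57% of genes read) and 31 lower (0.246%), by limma in a fit of all 12 arrays with adjusted p below 0.05. The variances of that fit also draw on the 6 h and 16 h arrays, so the early and late calls are not independent. The part of this in the shares that follow was not tested. Of the 72, 50 rose from 6 h to 16 h (69.4%, against 22.8% of all genes), 17 did not pass and 5 fell (6.94%, against 14.7%). Of the 31, 12 fell from 6 h to 16 h (38.7%, against 14.7%), 15 did not pass and 4 rose (12.9%, against 22.8%). Reversal between 6 h and 16 h was thus the rarest course in both directions. A 4 h shift that shrank by 6 h was not itself counted as a reversal. ATF3, at 9.34 at 4 h and 8.52 at 6 h, is therefore among the 50. When early shifts were taken at an unadjusted p under 0.01, 28 of 311 early risers later fell (9%) and 39 of 212 early fallers later rose (18.4%).

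**Figure D4:**
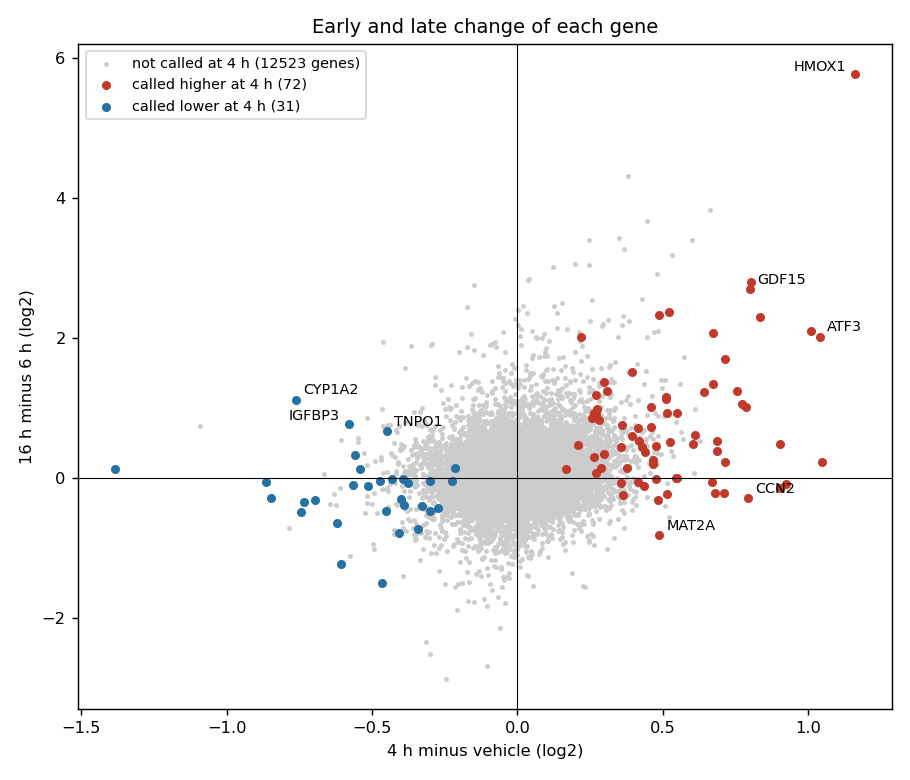
Log2 change from vehicle to 4 h (x axis) against log2 change from 6 h to 16 h (y axis) for each of the 12626 genes; red and blue points are the 72 genes higher and 31 lower at 4 h, grey points all others. The axes share no array. Most red points lie above the horizontal line, with HMOX1 at the top, MAT2A is the lowest red point, and CYP1A2, IGFBP3 and TNPO1 are the highest blue points.

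The clearest early rise that turned was in MAT2A, which encodes the enzyme subunit that makes S-adenosylmethionine, the methyl donor of the cell. It read 9.73, 9.71 and 9.75 with vehicle, 10.26, 10.18 and 10.22 at 4 h, 10.28, 10.29 and 10.25 at 6 h, and 9.58, 9.51 and 9.27 at 16 h. The 16 h arrays lay below all others, vehicle included, and the late fall was 1.77-fold (log2 change -0.82 ± 0.07, limma adjusted p = 6.32e-07). A second probe set near background fell by 0.51. MYADM went from 9.68 with vehicle to 10.17 at 4 h, 10.00 at 6 h and 9.68 at 16 h, a late fall of 0.32 ± 0.06 that ended at the vehicle level.

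The other 3 early rises that turned were smaller: CCN2, a matricellular growth factor, fell by 0.29 ± 0.09 (adjusted p = 0.0236), LPIN1, a phosphatidate phosphatase, by 0.24 ± 0.08 (adjusted p = 0.0368), and INSIG1, which holds SREBP factors back, by 0.24 ± 0.08 (adjusted p = 0.0381). By 6 h the early rise of INSIG1 had already gone, at 9.48 against 9.50 with vehicle, so its late fall went below vehicle. CCN2 and LPIN1 were above vehicle by 0.79 and 0.36 at 4 h and by 0.36 and 0.19 at 6 h. The calls of these 3 genes rested on few arrays, and all 3 were lost with no trend in the prior variance (adjusted p of 0.102, 0.0833 and 0.152). Without 6 h replicate 2, 6 h replicate 3, 16 h replicate 1 or 16 h replicate 2, each left out in turn, 2 genes met the rule in place of 5, and without 16 h replicate 3 there were 7. MAT2A and MYADM passed without any 1 of the 6 arrays, but MYADM missed the threshold on the mean of its probe sets (-0.24, adjusted p = 0.0609).

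Of the early falls that turned, CYP1A2, a cytochrome P450 gene, was the largest. It read 7.61, 7.62 and 7.70 with vehicle, 6.73, 6.88 and 7.04 at 4 h, 7.60, 7.34 and 7.52 at 6 h and 8.62, 8.54 and 8.66 at 16 h. The 4 h arrays were the lowest and the 16 h arrays the highest, and the late rise was 2.17-fold (log2 change 1.12 ± 0.09, limma adjusted p = 2.22e-07). Much of the early fall had gone by 6 h. Its only probe set can bind other transcripts.

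IGFBP3, which encodes a carrier of insulin-like growth factors, read 8.24, 8.37 and 7.95 at 4 h against 8.78, 8.78 and 8.73 with vehicle, and rose from 8.59, 8.56 and 8.52 at 6 h to 9.37, 9.38 and 9.24 at 16 h. The rise was 1.71-fold, and the 16 h arrays were above all others. TNPO1, a nuclear import receptor, was lower than with vehicle at both 4 h and 6 h, at 9.57 and 9.58 against 10.02, and then rose to 10.24. All 8 TNPO1 probe sets rose, by 0.52 to 0.78. ID2, an inhibitor of helix-loop-helix factors, rose by 0.14 ± 0.04 (adjusted p = 0.0115), and this call was lost without 6 h replicate 2 (adjusted p = 0.0512), after median centring (0.02, adjusted p = 0.825) and with no trend in the prior variance (adjusted p = 0.281).

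Genes called at 6 h against vehicle share the 6 h arrays with the late contrast, so their courses are given as values only. PTGS1, which encodes cyclooxygenase 1, read 2.23, 2.29 and 2.27 with vehicle, 2.69, 2.80 and 2.87 at 6 h, and 2.37, 2.16 and 2.27 at 16 h, all close to background. QRSL1, a mitochondrial amidotransferase subunit gene, read 6.99, 6.96 and 6.92 with vehicle, 6.32, 6.48 and 6.35 at 6 h, and 6.90, 6.87 and 7.01 at 16 h. For both genes the 16 h arrays lay on either side of the vehicle arrays, and the 6 h arrays lay apart from both groups. For QRSL1 a probe set outside the class that can bind several transcripts changed by 0.02 only.

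Other probe sets of the same genes were compared. Genes that rose 2-fold had 277 further probe sets above the level read, of which 197 rose and 3 fell. Genes that fell 2-fold had 73, of which 47 fell and 3 rose. The mean was also taken over all named probe sets of a gene, those below the level read included. On it BID, CDKN2A, CLK3, HK2, KLF5, LPIN1, REL, REST and RPLP2 missed the threshold without turning. The 2-fold genes with a further probe set called in the opposite direction were DOT1L, GDF15, MET, MTCL2, SAMD4B and TTC39C. The length of the gene in the genome, by RefSeq, had a median of 29.7 kb in 2-fold risers, 29.4 kb in genes that did not pass and 15.3 kb in 2-fold fallers. Its part in the result was not tested.

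Markers of other cell types were mostly dim. The summed log2 signal of the 12 fibroblast markers was 28.45 to 28.82 at 6 h and 29.89 to 30.64 at 16 h, and its part in the results was not tested. Of the 6 fibroblast markers above the level read, COL1A1 and LUM rose 3.37-fold and 2.18-fold, and DCN and COL3A1 fell 1.37-fold and 1.29-fold. COL1A1, a collagen gene, went from 3.96, 4.12 and 4.14 to 5.64, 6.00 and 5.83, but its other probe sets read 0.28 higher and 0.28 lower and did not pass. The DCN call was lost without 6 h replicate 1, 2 or 3 or 16 h replicate 3 (adjusted p of 0.145, 0.0701, 0.0721 and 0.195) and with no trend in the prior variance (0.0524), and the COL3A1 call without 6 h replicate 2 or 3 or 16 h replicate 1 or 2 (adjusted p of 0.122, 0.15, 0.0788 and 0.195). The summed signal of the leukocyte markers was 18.8 to 19.79 and 17.69 to 19.65, and that of the endothelial markers 18.07 to 19.69 and 17.55 to 18.34. No leukocyte or endothelial marker above the level read passed the test (2 and 4 genes).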

How the data were processed

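The authors deposited log2 values of 54675 probe sets for 12 Affymetrix U133 Plus 2.0 arrays. Per the submitters' processing notes they used GCRMA (version not given), which corrects background by probe sequence and normalises arrays to each other. A shift of nearly all transcripts at once is therefore hidden. Per the labels' protocols, RNA was amplified from the 3' end. Gene names came from the platform annotation, updated through RefSeq (for 41037 probe sets, with 54 kept as annotated). Probe sets with several symbols (1801), those with no gene listed (11721) and 62 controls were set aside.

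The 16 h and 6 h arrays were fitted alone in R 4.3.3 by limma 3.58.1 (linear model, moderated variances with a trend, 4 residual degrees of freedom, two-sided). Early differences came from a fit of all 12 arrays. Probe sets named _s_at or _x_at can bind several transcripts. The members and gene lists were chosen with earlier results of these data known. Named genes were the 10 largest rises and falls among called genes whose arrays do not overlap, the 6 largest in each direction among late-only genes, up to 8 per direction among reversals, up to 4 called members per list, and ONECUT2, KLK3, MYC, HMOX1, MAT2A, GDF15, PTGS1 and QRSL1 in every case. A further gene of this rule is not reported here. Genes named outside this rule are marked. On simulated data, 5 runs with changes of 1 on the log2 scale recovered 78.6% and changes of 0.5 recovered 23.8%, with 2.66% false calls among the calls. Far fewer probe sets were changed there than were called in the data, which makes the adjusted threshold stricter. These shares therefore do not give the recovery of the late wave. The alternatives covered scaling, filters, variance model, probe set choice, the early margin and leaving out each array. The number of arrays limits the precision.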

Additional observations from a re-analysis of the deposited data

Results flagged for a closer look

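Probe sets with no gene listed in the annotation were outside the comparison. Of 11721 such probe sets, 168 were higher at 16 h than at 6 h by 2-fold or more (limma adjusted p below 0.05) and 13 lower. Of 27 unspiked bacterial control probe sets 0 changed 2-fold and 2 were called lower, a number too small to set against that share. The genes behind these probe sets are not named here.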

How the results depend on the processing

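Of 154 named genes under all alternatives, 2502 values kept direction and side of the threshold, 65 kept the direction only and 4 turned: CDKN2A (0.13), MRPL4 (0.12), SRSF11 (-0.18) and TCOF1 (0.11), each when probe sets named neither _s_at nor _x_at were preferred. Median centring gave 6397 lower probe sets in place of 3846, 2927 lower genes in place of 1861, 164 genes lower 2-fold in place of 107 and 138 late-only fallers in place of 87. Averaging all probe sets per gene left 185 genes higher 2-fold in place of 325. Late-only counts followed the margin: 25 risers and 37 fallers at 0.3, and 318 risers at 1. Early rises that turned numbered 8 after quantile normalisation, 16 after centring, 28 at an unadjusted early p under 0.01, 28 with vehicle and 4 h arrays fitted alone and 32 with the early shift taken at 6 h, which shares arrays. Early falls that turned numbered 39, 41 and 66 under the last 3 settings. The cause of these shifts was not tested.

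Leaving out each array gave 4089 to 5639 higher and 2808 to 3665 lower probe sets, 2259 to 3017 higher and 1356 to 1735 lower genes, 296 to 389 and 97 to 113 at 2-fold, 156 to 204 and 80 to 93 late-only genes, 2 to 7 early rises that turned and 3 to 4 early falls that turned.

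Same-numbered 6 h and 16 h arrays had deviations correlated at 0.234, 0.055 and 0.086, and 1 of 3 same-numbered pairs was each other's best match. These values do not settle if the numbers pair the arrays, and the labels do not say. With the number as a replicate block, early rises that turned were 10 and early falls that turned 14, and the other counts moved by under 1.5 times (5924 higher and 4247 lower probe sets). With 3 arrays per time, changes near 0.5 were mostly below detection in simulation, where far fewer probe sets changed than in the data. That recovery does not carry over to the data, where genes that rose by under 2-fold had a median change of 0.47. Signals near background carry little information.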
